A study of Mus musculus with 2 samples.

Results

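Barcodes that held more unique molecular identifiers (UMIs) than the upper limit used for cell filtering were examined on their own in the single-cell libraries of GR-1+ cells from 4T1 tumors. A barcode was included when it held over 27000 UMIs and no more than 12.5% of them came from the mitochondrially encoded mt- genes. The barcodes were thus selected on their total UMIs and mt- share. This rule gave 111 of 4390 barcodes, 56 of 1641 in the library labelled 4T1p and 55 of 2749 in the library labelled 4T1m. Both measures are therefore descriptions of these barcodes and not findings about them.

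The tumors were grown in the mammary fat pad of female BALB/c mice aged 8 to 10 weeks and treated for 2 weeks with anti-PD1, an antibody against an inhibitory receptor of T cells. 4T1p is the parental 4T1 line, a murine triple-negative breast carcinoma whose tumors resist the antibody, and 4T1m is a polyclonal line derived from it by chemical mutagenesis whose tumors respond. Cells were enriched with magnetic beads for GR-1, an epitope of Ly6G and Ly6C on neutrophils and monocytes, and sequenced with 10x Genomics 3′ chemistry. Each condition is represented by 1 library, the number of mice behind it is not given in the sources used here, and no difference between the libraries was tested.

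The library labelled 4T1p held 9021132 UMIs with a median of 2066 per barcode, and the library labelled 4T1m held 14840190 UMIs with a median of 2763. The methods of the study give these medians for the opposite conditions, so the libraries are named here only by their deposited labels, and each direction between them rests on those labels. No barcode sequence was shared by the libraries. All 95% intervals are exact binomial or Poisson intervals and cover counting error only.

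Macrophages are large phagocytic cells that rely on the receptor Csf1r and make complement C1q and apolipoprotein E, whereas mature neutrophils are small cells with little RNA that is dominated by the calprotectin genes S100a8 and S100a9. Carcinoma cells are epithelial and keep keratins such as Krt8 and Krt18, and proliferating cells of any lineage express replication genes in S phase and spindle genes in G2 and M phase. Because a droplet with more than one cell can also hold many UMIs, an upper limit on UMIs is a common step of single-cell filtering. Markers of more than one lineage in a barcode were therefore counted alongside the lineage of each barcode.

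The high-UMI barcodes were 3.41% (95% interval 2.59 to 4.41) of barcodes in the library labelled 4T1p and 2.00% (1.51 to 2.60) in that labelled 4T1m. They carried 23.3% of all UMIs of the former and 13.6% of the latter. Their UMIs ran from 27141 to 92162 (median 32755.5) in the library labelled 4T1p and from 27232 to 66662 (median 34259) in that labelled 4T1m, against medians of 2015 and 2739 in barcodes that passed the limits of the study (250 to 5000 genes, at most 27000 UMIs, at most 12.5% mt- UMIs). They contained a median of 5049.5 and 5450 detected genes, compared with 755.5 and 910.5 in the kept barcodes. Median mt- content was 5.38% and 5.68%, and median ribosomal protein content was 15.7% and 13.9%, against 15.9% and 6.47% in the kept barcodes. Just inside the limit, from 27001 to 30000 UMIs, there were 26 barcodes with a median of 4827.5 genes, and just outside, from 24000 to 27000 UMIs, there were 51 with a median of 4520 genes.

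The high-UMI barcodes were mostly macrophage-like. All 3335 barcodes with at least 250 genes and at most 12.5% mt- UMIs were clustered together, and clusters were named from lists of marker genes. Of the 111 barcodes, 98 (88.3%, 80.8 to 93.6) lay in macrophage-like clusters, 12 (10.8%, 5.71 to 18.1) in an epithelial-like cluster and 1 in a neutrophil-like cluster. The macrophage-like barcodes numbered 51 in the library labelled 4T1p and 47 in that labelled 4T1m, and the epithelial-like barcodes 5 and 7. No T cell-like (0 of 27) or B cell-like (0 of 36) barcode exceeded the limit, which allows shares of up to 11.1% and 8.33%.

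**Figure D1:**
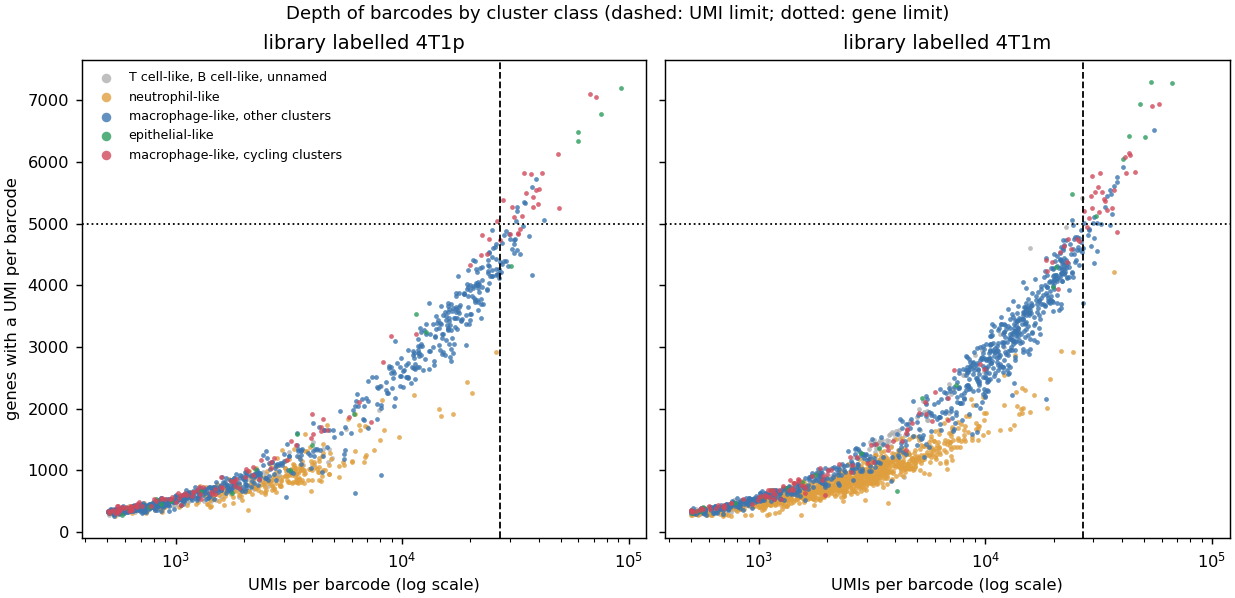
Detected genes (y axis, genes with a UMI) against UMIs (x axis, log scale) of each barcode, with 1 panel per library, colored by cluster class; the dashed line is the limit of 27000 UMIs and the dotted line the limit of 5000 genes. Right of the dashed line lie 98 macrophage-like, 12 epithelial-like and 1 neutrophil-like barcodes.

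The defining markers of macrophages were counted in the 98 macrophage-like barcodes. All held UMIs of Csf1r, Cd68 and Ctss (cathepsin S), 97 held C1qa, and all held Ptprc, the pan-leukocyte antigen CD45. Other genes of the list were found in fewer, with Adgre1 (F4/80) in 85, Pf4 in 77, Mertk, a receptor for apoptotic cells, in 73 and Ms4a7 in 68. The 14 macrophage genes made up 0.202% to 5.81% of the UMIs of a barcode, with a median of 2.11%. Lymphocyte and fibroblast genes were close to 0 in these 98 barcodes, with 11 UMIs in all for the T cell list, 10 for the B cell list, 2 for the NK cell list and 5 for the fibroblast list among 3432676 UMIs.

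The 98 macrophage-like barcodes came chiefly from 3 clusters. Of these, 44 (21 in the library labelled 4T1p and 23 in that labelled 4T1m) lay in a cluster led by proliferation genes such as Mybl2, Kif14 and Hmmr. Another 29 (18 and 11) lay in a cluster led by Cxcl9, Ifit2, Siglec1 and Cx3cr1, and 22 (10 and 12) in a cluster led by Thbs1, Met, Vcan and Inhba. These leading genes define the clusters and are given only to identify them. The proportion of a cluster that exceeded the limit was 63.8% (51.3 to 75.01) of the 69 barcodes of the proliferating cluster, 9.97% (6.78 to 14) of the 291 in the Cxcl9-led cluster and 5.12% (3.23 to 7.64) of the 430 in the Thbs1-led cluster. The proliferating cluster was deep below the limit too, with a median of 19839.5 UMIs in its kept barcodes. Another cycling macrophage-like cluster, led by Birc5, Ube2c and Tyms and with a median of 1265 UMIs in its kept barcodes, had 2 of 172 (1.16%, 0.141 to 4.14) above the limit.

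Cell cycle genes were prominent in many of the macrophage-like high-UMI barcodes. A barcode was counted as cycling when lists of 42 S phase and 52 G2/M genes made up at least 0.482% of its UMIs, which is 50% of the median of kept barcodes in the cycling macrophage-like clusters. This held for 41 of 98 (41.8%, 31.9 to 52.2), with 19 of 51 (37.3%) in the library labelled 4T1p and 22 of 47 (46.8%) in that labelled 4T1m. Among kept macrophage-like barcodes the proportion was 14.1% (231 of 1633). By cluster alone, 46 of the 98 lay in clusters with at least 3 cell cycle genes among their 10 leading genes, and 40 of those 46 passed the threshold, compared with 1 of the 52 in other clusters. Of the 111 barcodes, 18 lay within 1.5-fold of the threshold. The cluster count depended on the clustering. With other settings of the joint clustering it was 38 to 52. When each library was clustered on its own, 1 of the 98 lay in a cluster named as cycling. In the library labelled 4T1p, 20 of the 21 barcodes of the proliferating cluster then stayed together. Their cluster had a median cell cycle share of 1.00%, and its leading genes included Kif14 and Mybl2. Of its 10 leading genes, 1 was on the cell cycle lists. The 23 labelled 4T1m lay in a cluster of 162 barcodes led by Kcnj10 and Cx3cr1, with a median of 0.176%.

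The proportion of cycling barcodes did not follow depth in one direction. Among macrophage-like barcodes it was 21.9% (178 of 814) up to 3000 UMIs, 3.06% (9 of 294) between 7000 and 13500 UMIs and 5.37% (8 of 149; 2.35 to 10.3) between 20000 and 27000 UMIs. Directly above the limit, between 27000 and 35000 UMIs, it was 35.5% (22 of 62; 23.7 to 48.7), and above 35000 UMIs it was 52.8% (19 of 36; 35.5 to 69.6). Over both libraries the intervals on either side of the limit did not overlap. The summed level of the lists showed the same step, from 1920 CPM (a gene's UMIs per 1e6 UMIs of the group) between 20000 and 27000 UMIs to 4733 CPM between 27000 and 35000. In the library labelled 4T1p the proportion was 6.56% (1.82 to 15.9) below and 29.4% (15.1 to 47.5) above the limit, and these intervals overlapped. In that labelled 4T1m it was 4.55% (1.25 to 11.2) and 42.9% (24.5 to 62.8), and they did not overlap. All of these intervals cover the counting of barcodes and not spread between replicates. Whether the step differed between the libraries was not tested.

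**Figure D2:**
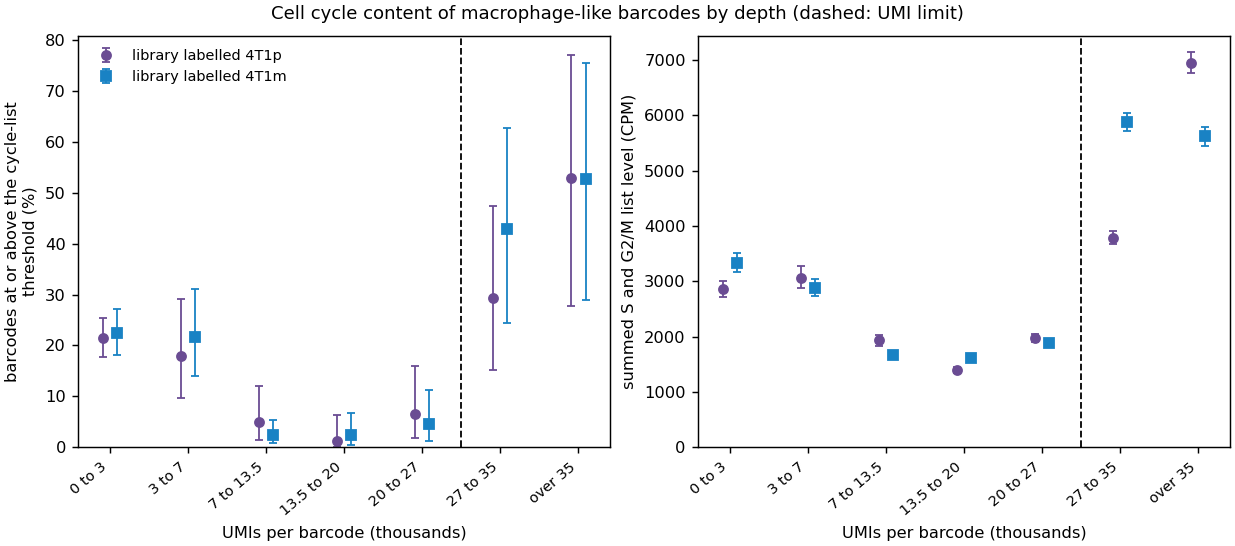
Percent of macrophage-like barcodes at or above the cell cycle threshold (left) and summed level of the S and G2/M lists in CPM (right) against UMIs per barcode, by library, with 95% counting intervals; the dashed line marks 27000 UMIs. In both libraries the points right of the line are higher than those of the bin just left of it.

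The ranges of cell cycle content overlapped between the libraries. Within the cycling clusters, the cell cycle lists made up 0.244% to 1.503% of UMIs (median 0.797%) in the 22 high-UMI barcodes of the library labelled 4T1p and 0.271% to 1.54% (median 0.845%) in the 24 of that labelled 4T1m. In the other macrophage-like clusters the medians were 0.132% and 0.141%. S phase genes outweighed G2/M genes in 19 of the 46 barcodes of the cycling clusters.

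The clusters were named as cycling from such genes, so shares of barcodes with a UMI at equal depth are a description of them. When each barcode was thinned to 1000 UMIs, Top2a, the topoisomerase that untangles replicated chromosomes, was detected in 14 of 46 (30.4%) high-UMI barcodes of the cycling clusters and in 0 of 52 of the other macrophage-like clusters, which allows up to 5.77%. Mki67, the proliferation marker Ki-67, was detected in 37.0% and 1.92% of them. At full depth these shares were 100% and 28.8% for Top2a and 97.8% and 67.3% for Mki67. Kept T cell-like and B cell-like barcodes gave 3.23% for Top2a at 1000 UMIs (2 of 62), from a median depth of 4181.5 UMIs, against 34371.5 in the 46 cycling barcodes.

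Markers of more than 1 lineage were then counted in each barcode. A barcode was said to carry a list when the list made up at least 10% of its median share in kept barcodes of that class, which set thresholds of 1.03% of UMIs for 14 neutrophil genes, 0.212% for 14 macrophage genes and 0.0212% for 14 epithelial genes. Of the 111 high-UMI barcodes, 3 (2.70%, 0.561 to 7.70) carried both the neutrophil and the macrophage list, 2 (1.80%) the macrophage and epithelial lists, and 0 the neutrophil and epithelial lists, which allows up to 2.70%. In total 5 of 111 (4.5%, 1.48 to 10.2) carried more than 1 list. Among macrophage-like barcodes only, the count was 5 of 98 (5.10%, 1.68 to 11.5) above the limit. In kept macrophage-like barcodes of at least 13500 UMIs it was 20 of 361 (5.54%, 3.42 to 8.43).

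These counts rest on a threshold that rises with depth. At the median of 33558 UMIs, the 1.03% asked for 344 neutrophil-list UMIs, more than the median of 229 in a kept neutrophil-like barcode, so a barcode with the list UMIs of 1 such cell would not have been counted. A threshold on the number of UMIs, chosen after seeing the data at 50% of the median of the kept class, asked for at least 114.5 neutrophil-list UMIs. By this measure 8 of the 111 carried both the neutrophil and the macrophage list. The epithelial list could not be judged this way, since 50% of its median of 3 UMIs is met by 2 UMIs, which 18 macrophage-like barcodes held.

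The 3 macrophage-like barcodes above the 1.03% threshold all came from the library labelled 4T1m. The clearest, with 36844 UMIs in the Cxcl9-led cluster, held 475 UMIs of S100a8 and 551 of S100a9 next to 32 of Csf1r and 115 of C1qa. The neutrophil and macrophage lists made up 3.15% and 2.79% of its UMIs. These calprotectin genes lie close together on chromosome 3 of GRCm38, S100a8 at 90668978 to 90670035 and S100a9 at 90692632 to 90695721. A further barcode of the same cluster with 29129 UMIs held 187 UMIs of S100a8 and 264 of S100a9, with list shares of 1.81% and 1.97%. The third, with 36254 UMIs in the Thbs1-led cluster, held 254 and 299 UMIs of these genes, but its macrophage list at 0.265% was barely above the threshold and it held a single C1qa UMI. In the library labelled 4T1p, 0 of 56 high-UMI barcodes carried the neutrophil list, which allows up to 5.36%.

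Another 5 macrophage-like barcodes passed the threshold on the number of UMIs but not the percent threshold, with 126 to 261 neutrophil-list UMIs and list shares of 0.417% to 0.812%. Of these, 2 lay in the proliferating cluster of the library labelled 4T1m, with 139 UMIs of S100a8 and 92 of S100a9 in one and 49 and 132 in the other. A barcode of the Cxcl9-led cluster labelled 4T1m held 41 and 129, and a barcode of the Thbs1-led cluster labelled 4T1p held 40 and 75. The fifth, labelled 4T1m, held 7 and 4. The median neutrophil list share of the 98 was 0.0273% of UMIs.

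The S100a8 UMI was also counted over all 98 macrophage-like barcodes, the 8 above included. At full depth, 75 of the 98 held a S100a8 UMI, and after thinning to 1000 UMIs the share was 15.2% in the cycling and 13.5% in the other clusters. Kept macrophage-like barcodes of the other clusters gave 15.2%, kept T cell-like and B cell-like barcodes 4.84% (3 of 62) and kept neutrophil-like barcodes 96.8%.

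**Figure D3:**
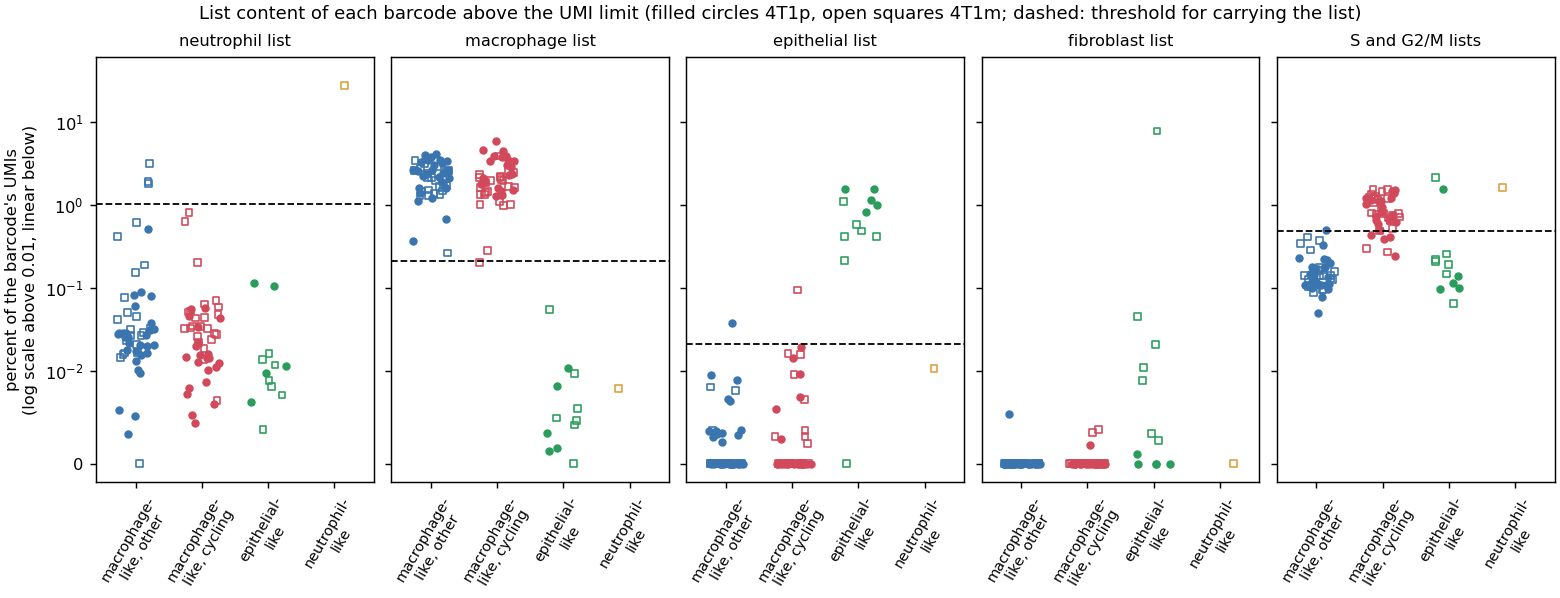
Percent of UMIs from the neutrophil, macrophage, epithelial, fibroblast and cell cycle lists in each of the 111 high-UMI barcodes (y axis, log scale above 0.01 and linear below), by cluster class. Filled circles are the library labelled 4T1p, open squares that labelled 4T1m, and dashed lines the thresholds, which the fibroblast list lacks. Only 3 macrophage-like barcodes lie above the neutrophil threshold of 1.03%, and 2 above the epithelial threshold of 0.0212%.

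The 2 barcodes with macrophage and epithelial genes were weaker cases. One, in the library labelled 4T1m with 29510 UMIs, lay in the proliferating cluster and held 5 UMIs of Epcam and 1 of Krt8, and its epithelial list made up 0.0949% of UMIs. The other, in the library labelled 4T1p with 31691 UMIs, had an epithelial share of 0.0379% without any UMI of Krt8, Krt18 or Epcam. Of the 111 epithelial-list UMIs in the 98 macrophage-like barcodes, 92 were from Cdh1 (E-cadherin), found in 25 of them. Only 3 UMIs of Krt8 and 2 of Krt18 occurred in all 98. After thinning to 1000 UMIs neither keratin was found in the 46 barcodes of the cycling clusters or the 52 of the others, which allows up to 6.52% and 5.77%.

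Doublet scores were computed with Scrublet, which rates a barcode by its likeness to simulated pairs. The median rank of the high-UMI macrophage-like barcodes was 84.7 on a scale to 100, against 58.1 in kept macrophage-like barcodes, and 32 of the 111 were among the top 10% of their library. Without these 32, 2 of 79 barcodes carried more than 1 list and none of the 3 above both the neutrophil and the macrophage percent threshold remained. The high-UMI barcodes are also the deepest, and the part of depth in these ranks was not tested.

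The epithelial-like high-UMI barcodes formed the deepest group. Their median was 52172.5 UMIs, and they were 12 of the 47 (25.5%, 13.9 to 40.3) epithelial-like barcodes, holding 81.4% of the UMIs of that class. The epithelial list made up 0.212% to 1.56% of UMIs in 11 of them. Krt18 and Krt8 encode the paired keratins of simple epithelia and are neighbors on chromosome 15 (GRCm38, 102028180 to 102032027 on the plus strand and 101996698 to 102004482 on the minus strand). They reached 2242 and 1512 CPM, and the adhesion molecule Epcam 1092 CPM, compared with 616, 520 and 112 CPM in the 34 kept epithelial-like barcodes. Ptprc and Csf1r were not detected in any of the 12, which allows up to 25%. Of the 10 leading genes of the joint cluster, 5 were on the epithelial list. When the library labelled 4T1m was clustered on its own, its 7 barcodes lay in a cluster whose 10 leading genes held 1 gene of that list, Wfdc2, and several matrix genes such as Col12a1, Col6a1 and Sparc, so the class name is less certain for these 7.

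The 12 barcodes varied among themselves. Epcam was at 1871 CPM in the 5 of the library labelled 4T1p and 351 CPM in the 7 of that labelled 4T1m, Krt7 at 1052 and 165 CPM, and the tight junction gene Cldn4 at 879 and 92.99 CPM. One barcode of the library labelled 4T1m with 50603 UMIs had no epithelial-list UMI. Instead, 7.76% of its UMIs came from the fibroblast list, with 1061 UMIs of Col1a1, 878 of Col1a2 and 1504 of Col3a1, the chains of type I and III collagen, so the class name rests on its cluster and goes against its own markers. Cell cycle genes passed the threshold in 2 of the 12, a barcode labelled 4T1m with 53742 UMIs (2.12%) and a barcode labelled 4T1p with 75799 UMIs (1.57%).

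The single neutrophil-like barcode came from the library labelled 4T1m and held 36981 UMIs and 4214 genes. Its neutrophil list made up 27.1% of UMIs, with 4850 of S100a8 and 4945 of S100a9. It also held 518 UMIs of Camp (cathelicidin), 304 of Ltf (lactoferrin) and 1784 of Ngp, genes of the secondary granules that are made in immature neutrophils. Mki67 and Top2a were present with 47 and 36 UMIs, the cell cycle lists made up 1.64% of its UMIs, and Csf1r was not detected. It was 1 of 1021 neutrophil-like barcodes of its library, and the library labelled 4T1p had 0 of 256, which allows up to 1.17%.

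Gene levels of the 98 macrophage-like high-UMI barcodes were then compared with those of the 1633 kept macrophage-like barcodes. Among 6447 genes (200 or more UMIs over both groups), 105 were at least 2-fold higher (1.63%) and 88 at least 2-fold lower (1.36%) with the same direction within both libraries, and the median log2 ratio over all genes was 0.06. The cell cycle lists stood apart, with 14 of 23 measured S phase genes and 21 of 29 G2/M genes higher and none lower, and median log2 ratios of 1.57 and 1.58. When each barcode was weighted equally, by the mean percent of UMIs per barcode, 46 of the 105 higher and 35 of the 88 lower genes remained, and 8 S phase and 12 G2/M genes were higher, with medians of 0.82 and 0.84. Their summed levels were higher within both libraries, by log2 ratios of 1.26 and 1.60 for S phase and 1.49 and 1.60 for G2/M in the libraries labelled 4T1p and 4T1m.

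Genes of both lists were among the 10 with the highest ratios. Top2a was at 172 and 292 CPM in high-UMI barcodes labelled 4T1p and 4T1m, compared with 33.4 and 24.6 CPM in the kept barcodes, a log2 ratio of 3.04 (2.85 to 3.23). Cenpf, a kinetochore protein, was at 77.9 and 84.3 CPM against 9.30 and 8.09 CPM, a log2 ratio of 3.24 (2.91 to 3.59). In each library the high-UMI barcodes were the higher group for both genes. Ccna2 (cyclin A2) had a log2 ratio of 2.998, Racgap1, which acts in cytokinesis, 2.96, and Mki67 2.01. Of the replication genes, the linker histone gene Hist1h1b had a log2 ratio of 3.13, Uhrf1, which maintains DNA methylation, 2.80, and Rrm2, a subunit of ribonucleotide reductase, 2.66. The sliding clamp gene Pcna was below 2-fold, at a log2 ratio of 0.93 (0.73 to 1.13).

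None of the 14 macrophage genes passed 2-fold, with Csf1r at a log2 ratio of -0.02 (-0.10 to 0.06), C1qa at 0.29 and Apoe at -0.43. The same was true of all 8 MHC class II, 17 lysosomal, 14 interferon-response and 85 ribosomal protein genes measured. Of the immediate-early and heat shock genes, 2 of 12 were lower, Hspa1a (-1.50) and Hspa1b (-1.70), both HSP70 chaperones. Cxcl3 (-1.62) was the 1 of 15 inflammatory genes that was lower, and Egln3 (-1.09), an oxygen-sensing hydroxylase, the 1 of 16 genes of glycolysis and hypoxia. The neutrophil list had 4 of 12 genes lower (Mmp9, Clec4d, Slfn4 and Wfdc21) and none higher, with a median log2 ratio of -0.22. Without the high-UMI barcodes that carried a second list, 7 of the 12 were lower and the median was -1.34. Those barcodes were chosen in part by this list, while the 90 kept macrophage-like barcodes with more than 1 list stayed in. A lower value therefore follows from the choice and is a description only. The matrix list had 4 of 12 lower, with Thbs1 (thrombospondin 1) at 12.3 and 97.0 CPM in the high-UMI barcodes (labelled 4T1p and 4T1m) against 39.2 and 446 CPM in the kept ones. Sdc1 (syndecan 1) was nearly absent from the high-UMI barcodes, with 2 UMIs against 422 UMIs over 143 kept barcodes, a log2 ratio of -5.95 (-9.0 to -4.09). The monocyte genes Ly6c2 and Chil3 were lower by log2 ratios of -3.69 and -4.24, and Lyve1, a receptor of tissue-resident macrophages, by -4.28 (-6.57 to -2.71, 3 against 198 UMIs). For Chil3, 191 of the 449 kept UMIs came from 1 barcode. The cluster led by Lyve1, Cd163 and Cbr2 held 89 kept barcodes and 1 high-UMI barcode, so the groups compared for Lyve1 differed in their share of it. The hemoglobin gene Hba-a1 was at -9.15 (-14.46 to -6.67) and Retnla at -7.36 (-12.67 to -4.88), each with 1 UMI in the high-UMI barcodes. Single kept barcodes held 1491 of the 1937 kept UMIs of Hba-a1 and 406 of the 560 of Retnla. In all, 28 and 23 kept barcodes held a UMI of these genes.

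A comparison with kept macrophage-like barcodes of at least 13500 UMIs (361 barcodes) gave similar counts for the cell cycle lists. Here 85 of 5399 genes were higher (1.57%) and 31 lower (0.574%), including 12 of 19 S phase and 19 of 25 G2/M genes among the higher. Outside the cycling clusters the excess was much smaller, with 5 of 5860 genes higher and 62 lower, and summed log2 ratios of 0.07 for S phase and 0.24 for G2/M. Those clusters were named from cell cycle genes, so a smaller excess of these lists without them follows from the naming and is a description only.

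The comparison was repeated within each of the 3 large clusters. In the Thbs1-led cluster (22 against 408 barcodes) 24 of 3668 genes were higher (0.654%) and 93 lower (2.54%). The higher genes included 4 of the 14 macrophage genes, among them the C-type lectin Mrc1 (log2 ratio 1.29; 751 against 306 CPM). The C-type lectin Mgl2 (3.57, 3.15 to 3.99), the folate receptor gene Folr2 (1.68) and the chemokine gene Ccl12 (1.55) were higher too. A single high-UMI barcode labelled 4T1m held 233 of the 548 Mrc1 UMIs, and without it the log2 ratio was 0.56 (0.38 to 0.74), below 2-fold. This 1 of the 4 macrophage genes thus passed 2-fold through 1 barcode. Mgl2, Folr2 and Ccl12 were at 2.95, 1.40 and 1.09 without the barcode richest in each. The lower genes included Sdc1 (-4.78, -7.83 to -2.92), Ly6c2 (-3.99, -6.27 to -2.43), the heat shock gene Hspa1a (-3.01) and Plac8 (-2.99). In the Cxcl9-led cluster (29 against 262) 5 of 3366 genes were higher (0.149%), among them the phosphatase gene Dusp2 (1.42) and the platelet factor gene Pf4 (1.20), and 16 were lower (0.475%), among them the acute phase gene Saa3 (-2.68) and the cytokine gene Il6 (-1.09). Without the barcode richest in the gene, Pf4 was at 0.77 and, where that barcode was a kept one, Saa3 at -1.48 and Il6 at -0.84. In the proliferating cluster (44 against 24) 5 of 1573 genes were higher (0.318%), with the fatty acid-binding protein gene Fabp5 (1.90) first, and 9 lower (0.572%), including S100a9 (-1.66), S100a8 (-1.61) and Jun (-1.07). Within the libraries labelled 4T1p and 4T1m, S100a9 was at -4.86 and -0.42, S100a8 at -4.13 and -0.31, and Jun at -1.66 and -0.09. These genes were thus below 2-fold in the library labelled 4T1m, and that labelled 4T1p had 10 kept barcodes in this cluster. Jun was at -0.81 without the kept barcode richest in it.

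The macrophage-like high-UMI barcodes of the libraries were then compared with each other. Of 2496 genes, 54 were at least 2-fold higher in the library labelled 4T1p (2.16%) and 149 at least 2-fold lower (5.97%), with a median log2 ratio of -0.10. Of the MHC class II genes, 6 of 7 were higher, and the list summed to 25443 CPM in the library labelled 4T1p and 9444 CPM in that labelled 4T1m, a log2 ratio of 1.43 (1.40 to 1.46). Cd74, the invariant chain of MHC class II, was at 12591 and 4926 CPM, and H2-Ab1, a class II beta chain, at 3595 and 1320 CPM. Of the interferon-response genes, 7 of 10 were higher. Irf7, a transcription factor of the interferon pathway, was at 253 and 29.7 CPM and had UMIs in 43 of 51 and 17 of 47 barcodes, and Isg15, a ubiquitin-like interferon target, was at 1210 and 332 CPM. The class II genes lay on the same side in each of the 3 large clusters, with 5 of 6 measured genes higher in the Cxcl9-led, 5 of 7 in the proliferating and 4 of 5 in the Thbs1-led cluster, where 4.6%, 3.22% and 5.79% of all measured genes were higher and 5.21%, 4.19% and 5.02% lower.

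Other lists moved with these. Of the 13 mt- genes, 4 were lower in the library labelled 4T1p and none higher, with a median log2 ratio of -0.43 and mt-Nd4l at -1.89, and the list summed to 52152 CPM in the library labelled 4T1p and 59298 CPM in that labelled 4T1m. Of the 12 immediate-early and heat shock genes, which respond to tissue handling among other stimuli, 4 were higher and none lower, namely Fos (1.72), Jun (1.12), Hspa1b (1.57) and Dnajb1 (1.17). By cluster, 5 of 11 were higher and none lower in the proliferating cluster and 3 of 9 and none in the Thbs1-led cluster, whereas in the Cxcl9-led cluster 1 of 10 was higher (Fos, 1.45) and 1 lower (Hspa1a, -2.04), with a median log2 ratio of -0.23. Gm42418 and AY036118, which overlap ribosomal RNA sequence and were singled out after their values were seen, had log2 ratios of -1.09 and -1.21 over all 98 barcodes, -1.85 and -2.54 in the proliferating cluster, -1.18 and -1.51 in the Cxcl9-led cluster, and -0.13 and 0.10 in the Thbs1-led cluster. The part of RNA quality or handling in the differences between the libraries was not tested.

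Of 15 inflammatory genes measured over all 98 barcodes, 4 were lower in the library labelled 4T1p and none higher. These were Il6 (14.01 against 156 CPM), the neutrophil-attracting chemokine gene Cxcl3 (91.9 against 388), the inflammasome gene Nlrp3 (363 against 761) and Ptgs2, which encodes cyclooxygenase 2 (353 against 810). Cxcl2 and Il1b did not reach 2-fold, with log2 ratios of -0.54 and -0.58.

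Within clusters the inflammatory genes went both ways. In the Thbs1-led cluster 3 of 14 were higher in the library labelled 4T1p and 3 lower, with a median log2 ratio of -0.0060. The higher ones were the cytokine gene Tnf (2.68) and the chemokine genes Ccl3 (1.86) and Ccl4 (1.12), and without the barcode richest in each they were at 1.89, 0.95 and -0.16. In the Cxcl9-led cluster 1 of 13 was higher, Ccl2 (1.19, or 0.91 without the richest barcode), and none lower. In the proliferating cluster none of 13 was higher and 2 were lower, Cxcl1 (-1.08) and Ptgs2 (-1.36).

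Of the macrophage genes, Mrc1 (286 against 717 CPM) and Pf4 (263 against 604 CPM) were lower, and the latter had 390 of its 995 UMIs in 1 barcode of the library labelled 4T1m. Without that barcode Pf4 was at a log2 ratio of -0.50, and without the barcode that held 233 of its 1182 UMIs there Mrc1 was at -1.04. S100a8 and S100a9 were lower by log2 ratios of -3.66 and -3.75, but 1 barcode of the library labelled 4T1m held 1026 of the 2972 UMIs of these genes there. The summed neutrophil list was at -2.83, at -2.34 without that barcode and at -1.52 without all barcodes that carried a second list. Both removals took barcodes rich in this list out of the library labelled 4T1m, so the smaller differences follow from the choice.

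Kept macrophage-like barcodes of the same libraries showed 5 of 8 class II genes higher in the library labelled 4T1p (median log2 ratio 1.08) and 3 of 12 interferon-response genes (median 0.50), where 1.31% of 5652 genes were higher and 6.6% lower. Irf7 had a log2 ratio of 1.74 in the kept and 3.09 in the high-UMI barcodes. Whether the libraries differ more above the limit than below it was not tested.

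**Figure D4:**
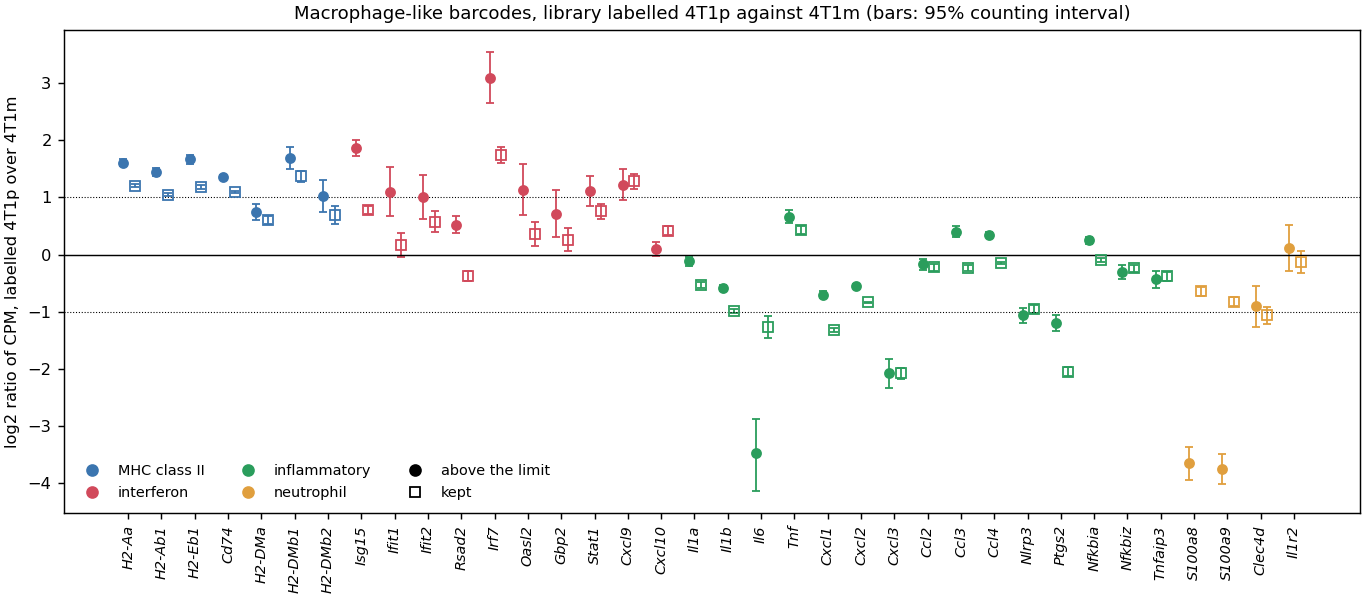
Log2 ratio of CPM between the library labelled 4T1p and that labelled 4T1m (y axis) for genes of the MHC class II, interferon and inflammatory lists in macrophage-like barcodes, with filled circles for high-UMI barcodes, open squares for kept barcodes and bars for 95% counting intervals. Of the class II genes, 6 of 7 lie at or above 1 and 4 inflammatory genes lie below -1 in the high-UMI barcodes.

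The limits of the study removed a different proportion of each cell class. Of barcodes that passed the lower gene limit and the mt- limit, the upper limits on UMIs and genes removed 115 of 3335, namely the 111 high-UMI barcodes and 4 others with over 5000 genes. Of the 111, 72 also exceeded 5000 genes, and the remaining 39 (27 in the library labelled 4T1p and 12 in that labelled 4T1m) were removed by the UMI limit alone. Of the 12 epithelial-like barcodes, none held a Ptprc UMI, so the later requirement of Ptprc would have removed them without the UMI limit. The other 99 held Ptprc and would have passed that step.

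The UMI limit took 5.65% (4.61 to 6.85) of macrophage-like barcodes and 22.6% of their UMIs, but 0.0783% of neutrophil-like barcodes. Among macrophage-like barcodes of the cycling clusters it took 46 of 241 (19.1%, 14.3 to 24.6) and 69.6% of their UMIs, compared with 52 of 1492 (3.49%) and 13.4% in the other clusters. The Ptprc step was examined among macrophage-like barcodes only. There 51 of 194 (26.3%) kept macrophage-like barcodes of the cycling clusters held a Ptprc UMI, from a median depth of 1440.5 UMIs, against 850 of 1439 (59.1%) in the other clusters, from a median of 4098. By the cell cycle threshold, 9.59% (96 of 1001; 7.84 to 11.6) of Ptprc-positive macrophage-like barcodes were cycling with the high-UMI barcodes included and 5.99% (54 of 901; 4.53 to 7.75) without the barcodes over the upper limits. The values were 10.46% and 5.92% in the library labelled 4T1p, and 9.08% and 6.03% in that labelled 4T1m.

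The transcripts removed with the high-UMI barcodes were unevenly spread over genes. These barcodes were 3.33% of the 3335 and held 19.98% of their UMIs, and 94 of 7261 genes (1.29%) had more than 50% of their UMIs in them. For the epithelial list the removed share was 85.4% of UMIs, with 7 of 8 measured genes above 50%. For the S phase list it was 42.1% (10 of 28 genes above 50%) and for the G2/M list 39.1% (16 of 33 genes), with Cenpf at 72.4% over 31 high-UMI barcodes, Top2a at 68.4% over 66 and Mki67 at 52.8% over 83. The macrophage, MHC class II and lysosome lists, at 20.8%, 19.7% and 20.9%, were near the share of all UMIs, the inflammatory list was at 12.3% and the neutrophil list at 2.04%.

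The genes with the highest removed share were epithelial or came from 1 barcode. Cldn4 had 96.3% of its UMIs in 10 high-UMI barcodes, Epcam 91.8% in 14, Wfdc2 91.1% in 11 and Krt7 90.9% in 11. By contrast, the 95.9% of Col3a1, 91.6% of Col1a2 and 90.9% of Col1a1 were due almost wholly to the collagen-rich barcode described above, as was the 83.0% of the fibroblast list. Single barcodes also held 99.0% of the UMIs of 1500015O10Rik, 90.7% of those of Thbs2 and 56.9% of those of Tslp, an epithelial cytokine.

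**Figure D5:**
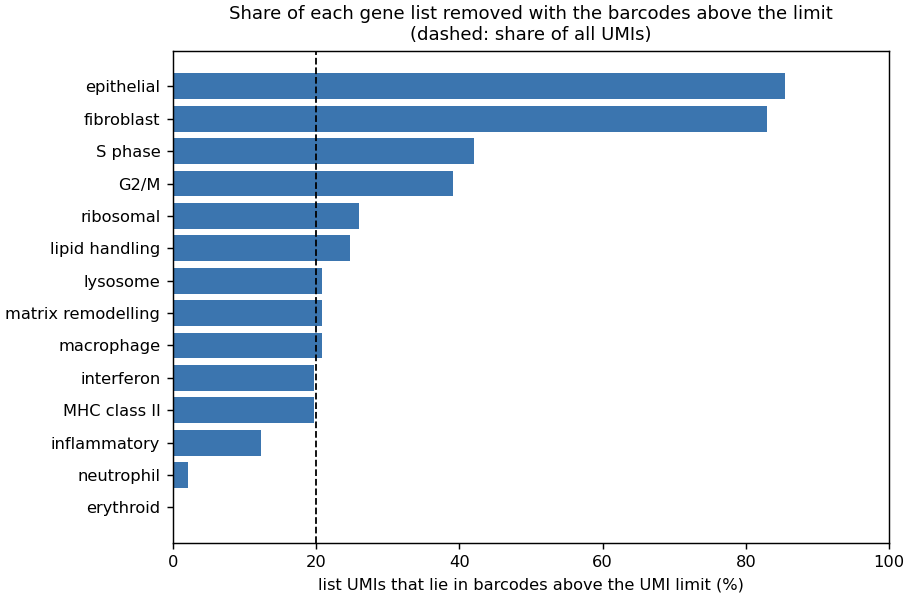
Percent of the UMIs of each gene list that lie in barcodes above the UMI limit (x axis), among the 3335 barcodes that passed the lower gene limit and the mt- limit; the dashed line is the share of all UMIs, 19.98%. The epithelial and fibroblast lists exceed 80%, the S and G2/M lists are near 40%, and the neutrophil list is at 2.04%.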

How the data were processed

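The authors obtained raw UMI counts per gene and barcode with Cell Ranger on mm10 and deposited the matrices of barcodes called as cells, before any filter on depth. The study removed doublets with scDblFinder after its limits on genes, UMIs and mt- share. These counts were read as deposited. Of 28692 listed genes, 58 repeated a symbol, and the first entry of each kept it. Single-cell counts of 2 libraries were used, with depths given in the report.

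Barcodes with at least 250 genes and at most 12.5% mt- UMIs were log-normalized and clustered jointly (2000 variable genes, 20 principal components, 15 neighbors, Leiden resolution 1). A cluster took the name of a list with at least 3 markers detected in at least 25% of its barcodes, and stayed unnamed where its 10 leading genes held more markers of other lists than of its own, or where it was shallow and they held none of its own. Matrix genes outside the fibroblast list did not count against a name. Levels are summed UMIs as CPM, computed from the deposited counts, and intervals of their ratios use exact binomial limits. A gene was called at a log2 ratio of at least 1 in size among genes with at least 200 UMIs, with the same direction within both libraries for comparisons with kept barcodes. With 1 library per condition no p-value was computed, and intervals and floors (3 counts for a count of 0) cover counting error only.

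Named genes are those of the marker and pathway lists, the 10 highest and 10 lowest ratios of each comparison, the 10 genes with the highest share in high-UMI barcodes, and the 10 leading genes of clusters. Genes of the granules of immature neutrophils (Camp, Ltf, Ngp) are among the leading genes of the neutrophil-like cluster. Barcodes, lists and comparisons were chosen with earlier results of these data known. A set of 26 alternative settings was run, and 9 more were chosen after seeing the data, the cell cycle threshold per barcode among them. The comparison of genes was tested on simulated data. The simulated barcodes of a group shared a common profile, so that test could not judge calls that come from single barcodes. Clustering and Scrublet ran in scanpy 1.11.5 (anndata 0.12.19), sums and intervals in pandas 2.3.3, scipy 1.17.1 and numpy 2.4.6, and plots in matplotlib 3.10.9, under Python 3.11.15. Tumors of other lines, bone marrow cells and human data were not analysed here.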

Additional observations from a re-analysis of the deposited data

Results flagged for a closer look

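Summed levels of 4 lists in macrophage-like high-UMI barcodes, relative to kept macrophage-like barcodes, lay on opposite sides in the libraries, and the differences between the libraries were not tested. The neutrophil list had a log2 ratio of -1.74 in the library labelled 4T1p and 0.33 in that labelled 4T1m, and S100a8 alone had -2.39 and 0.62. The 3 barcodes that carried both neutrophil and macrophage genes were all in the latter. They held 1160, 695 and 528 neutrophil-list UMIs, and 475, 254 and 187 of the 1316 S100a8 UMIs there. The positive values of the library labelled 4T1m therefore rested on these 3 barcodes. Over both libraries the list went from -0.27 to -1.33 without barcodes that carried a second list. This fall follows from removing barcodes chosen in part by this list. The lipid handling list had 0.52 and -0.10, the interferon list 0.27 and -0.21, and the matrix list 0.12 and -0.26.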

How the results depend on the processing

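No paired analysis was possible because each condition has 1 library and no replicate numbers, and leaving out a replicate had no meaning for the same reason. Of the values that answer a comparison, 83 were labelled as unchanged in size and 65 as moved. For counts these labels did not follow counting error. A fall from 115 to 81 barcodes removed by the upper limits was labelled as unchanged. A fall from 3 to 1 barcodes with neutrophil and macrophage lists was labelled as moved. With a UMI limit of 20000, 268 barcodes were selected (7.25% and 5.42% of the libraries labelled 4T1p and 4T1m), with 35000, 47 (1.28% and 0.946%), and with an mt- limit of 5%, 33 (1.28% and 0.437%). With 11 principal components the neutrophil-like cluster held 0 high-UMI barcodes, and with each library clustered on its own, 1 of the 98 macrophage-like ones lay in a cluster named as cycling. There, 20 of the 21 barcodes of the library labelled 4T1p sat in a cluster with 1 listed cell cycle gene among its 10 leading genes, and 23 of that labelled 4T1m in a cluster led by Kcnj10 and Cx3cr1. With carry thresholds of 5% of the class median, 13 barcodes carried more than 1 list (6 neutrophil and macrophage, 6 macrophage and epithelial), with 20%, 1 (1 and 0), and without the top 10% of Scrublet scores, 2 (0 neutrophil and macrophage). With a threshold on list UMIs, 24 did (8 and 18). Thinned to 5000 UMIs, Top2a was detected in 71.7% of the cycling clusters, and S100a8 in 30.4% of these and 30.8% of the others.

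Against kept barcodes, genes higher and lower numbered 328 and 197 with at least 50 UMIs and 11 and 25 with at least 1000, 31 were lower against deep kept barcodes, 93 were higher and 43 lower by the mean percent per barcode (46 and 35 shared), 5 and 9 passed within the proliferating cluster, and 5 were higher outside the cycling clusters. The log2 ratios of the S phase, G2/M, macrophage and neutrophil lists were 1.58, 1.74, -0.20 and -0.086 against deep kept barcodes, 0.87, 1.01, -0.20 and 0.0066 by the mean percent per barcode, 1.57, 1.67, -0.082 and -0.36 with Ptprc only, and 0.19, 0.40, 0.20 and -1.34 within the proliferating cluster. Without barcodes that carried a second list the last 3 were 1.59, -0.088 and -1.33, and outside the cycling clusters S phase, G2/M and neutrophil were 0.071, 0.24 and 0.33. Mcm5 (-0.057), Mcm6 (-0.028) and Rangap1 (-0.044) changed sign within the proliferating cluster, and Smc4 (-0.55) outside the cycling clusters. The causes were not tested.

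Between the libraries, 136 genes were higher and 489 lower with at least 50 UMIs. Outside the cycling clusters 65 were lower, and the log2 ratios of the MHC class II, interferon and neutrophil lists were 1.69, 1.47 and -3.07. The neutrophil list was at -1.52 without barcodes that carried a second list, and at -2.34 without the barcode richest in S100a8 and S100a9. The proportion of kept macrophage-like barcodes that cycled was 11.9% by cluster and 14.1% by threshold.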

Other observations

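One barcode of the library labelled 4T1m exceeded the UMI limit but also the mt- limit of 12.5%, and is in no comparison.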
